A study of Mus musculus with 6 samples.

Results

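The genes described here encode the parts of the heart sarcomere that anchor, cap and cross-link its filaments: actin and the proteins along the thin filament, the Z-disc, titin, the M-band, the desmin network, and the muscle enzymes and myoglobin that supply the sarcomere with energy and oxygen. They were listed by name, with myosin chains, troponins and calcium pumps left out. A gene was a member where a probe set (a group of array probes for 1 transcript) of the deposited table was annotated to its symbol and no other. Of 30 listed genes, 29 had such a probe set, of 18193 genes with one on the array, and all 29 passed the filter on dim genes that left 11113 genes. Xirp2 had none and was not analysed here. The comparison asks how the transcripts of these genes differ between hearts of 2 genotypes. The first is wild type, with 3 arrays. The second carries FOG-2R3K5A (called mutant from here on), also with 3 arrays, and its zygosity is not given in the sources used here. FOG-2 is encoded by Zfpm2 and works with GATA factors in the developing heart, and a FOG-2 protein with the R3K5A change is known to lose its binding to NuRD, a chromatin remodelling complex. Wild-type and mutant embryos were siblings from double heterozygous crosses, their strain is labelled as mixed C57/B6, 129 S6, and whole hearts were taken at embryonic day 16.5. Each array measured 1 biological replicate, and the labels do not say whether that was 1 heart or several.

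In a sarcomere, thin filaments of actin are anchored at the Z-disc and slide along thick filaments of myosin, which are cross-linked at the M-band. Titin spans from Z-disc to M-band and holds many signalling and adaptor proteins along its length. The cells of the fetal heart make these proteins in very large amounts, and mutations in many of the genes cause cardiomyopathy.

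Values are log2 intensities, differences are mutant minus wild type on that scale, and a gene passed the test at an adjusted p under 0.05 by limma over all 11113 genes. Median intensity was 77.3 to 84.1 across the arrays, and pairs of arrays correlated at 0.972 to 0.995. All 12 cardiomyocyte markers of a fixed list were above the filter level, and 0 of them passed the limma test, with 2 at an unadjusted p under 0.05. Xist and the Y-linked Eif2s3y were both above the filter level on 6 of 6 arrays. Some markers of other cells rose in mutants. These were 5 of 10 epicardium markers (Krt18 by 1.54, Krt8 by 1.42, Msln by 0.98, Krt19 by 0.93 and Upk3b by 0.50), 2 of 9 fibroblast and valve markers (Vcan by 0.50 and Fbln2 by 0.50) and 1 of 8 endothelial markers (Vwf by 0.92). Of the other epicardium markers, Upk1b was above zero and 4 were below without passing, Aldh1a2 at -0.22, Tbx18 at -0.11, Tcf21 at -0.09 and Wt1 at -0.06, and 3 fibroblast and valve and 2 endothelial markers were below zero too. The summed intensities of the 3 lists were higher on every mutant array, at 8201 to 8890 against 6744 to 6984, 36258 to 38699 against 32674 to 35297, and 10521 to 11111 against 9469 to 10438. Of 6 smooth muscle, 3 lung, 2 erythroid and 5 leukocyte markers tested 0 passed by limma, with 1, 1, 0 and 1 at an unadjusted p under 0.05. The genes with the smallest p in these lists, given with their differences, were Cnn1 (0.42) and Tagln (0.22) of smooth muscle, Scgb3a2 (3.41) and Sftpc (0.98) of lung, Alas2 (0.27) and Slc4a1 (0.30) of erythroid cells, and C1qa (0.40) and Csf1r (0.14) of leukocytes. Lung markers summed to 247 to 391 in wild type and 252 to 3563 in mutants, so mutant arrays differed widely in them. On mutant arrays 1, 2 and 3 Scgb3a2 read 9.03, 4.87 and 11.36 and Sftpc 6.17, 5.80 and 9.43, while Sftpb had a difference of -0.14. Myh11 of smooth muscle and Nkx2-1 of lung were at or below the filter level. The part of these cells in the member values was not tested. In RNA of a whole organ, fewer cells of a type and less RNA per cell cannot be told apart.

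Of the 29 members, 1 passed the test, Nebl, which was higher in mutants. Over all genes tested 1.76% passed (1.39% higher, 0.369% lower), so 1 of 29 members was near the share of all genes. By limma 0 members passed in the lower direction, where 3 had an unadjusted p under 0.05. In the higher direction 5 had one, and the 8 together compare with 14.7% of all genes. The median difference of the members was 0.0056, with 16 above and 13 below zero, beside a median of -0.011 and a share of 47.2% above zero over all genes. With median centring of the arrays 18 were above zero, and with quantile normalization 14 were. The size of the differences was small: the median of their absolute values was 0.085, and 0.084 over the 3565 genes at least as bright as the dimmest member. Within each range of brightness the members had the larger median, such as 0.090 against 0.063 over all genes at means from 12 to 13. This was not tested. The genotypes did not overlap for 8 members, 5 higher and 3 lower in mutants. Over all genes tested the same held for 21.2%, and for 23.5% of those 3565 genes, most of which were dimmer than most members. With quantile normalization 3 members were higher and 4 lower without overlap.

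**Figure D1:**
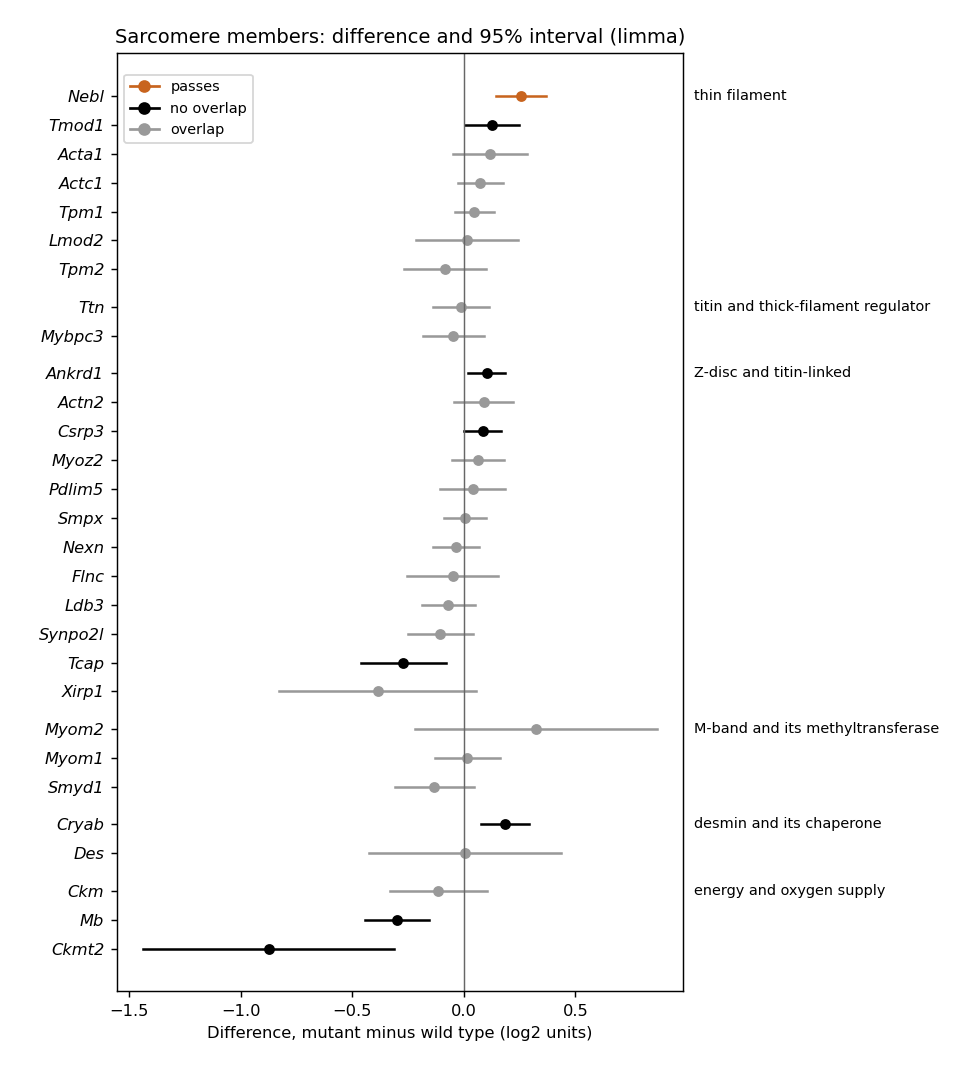
Difference in log2 units (horizontal axis) with its 95% limma interval for each of the 29 members (vertical axis), grouped by role. Nebl, in orange, passed the test. In black are the other 7 members whose genotypes did not overlap, and in grey those that overlapped; most points lie within 0.2 of zero, and Ckmt2 lies lowest, at -0.87.

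Nebl encodes nebulette, a Z-disc protein of heart muscle related to nebulin that binds actin along the end of the thin filament. Its brightest probe set, 1438452_at, read 11.95, 11.86 and 11.91 on wild-type arrays 1, 2 and 3. On mutant arrays 1, 2 and 3 it read 12.20, 12.18 and 12.12. All mutant arrays lay above all wild-type arrays. The means were 12.16 ± 0.04 in mutants and 11.91 ± 0.04 in wild type (SD, n = 3). The difference was 0.26 (SE 0.05), or 1.19-fold, with an adjusted p of 0.0381 by limma. The call was kept without wild-type replicate 1 (adjusted p = 0.0274) and ended when any other single array was left out, with adjusted p from 0.0753 without mutant replicate 3 to 0.221 without mutant replicate 1. It also ended with median centring (0.0534), without the filter (0.0914), without the intensity trend (0.174) and when every probe set was tested (0.0524). The difference itself stayed between 0.23 and 0.36 in all 16 alternative settings.

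The other Nebl probe sets were higher in mutants too. Probe set 1439897_at read 8.63, 8.37 and 8.61 in wild type and 9.15, 9.14 and 9.24 in mutants, without overlap, a difference of 0.64 (SE 0.10). Tested over all 19762 probe sets with a single symbol that passed the filter, it had an adjusted p of 0.0227, where 1.1% of probe sets passed (0.88% higher, 0.218% lower). Probe set 1451846_at read 10.10, 10.18 and 10.09 against 10.21, 10.30 and 10.44. Its groups did not overlap either, and its difference of 0.19 did not pass (adjusted p = 0.324). The 3 probe sets thus shared a direction but not a size. The ratio of 1439897_at to the brightest probe set was higher in mutants by 0.38 (SE 0.11) without overlap, and it did not pass over the 8415 ratios tested (adjusted p = 0.597).

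RefSeq lists 4 starts for Nebl on chromosome 2 of build GRCm38.p6, and which of their transcripts each probe set reads was not examined. The 250 bases before each start are shown because Nebl was the member that passed, and because motifs of muscle and GATA factors differ between these starts. They are named 1 to 4 by position on the chromosome. Capitals mark matches on either strand to AGATAA or TGATAA (the core bound by GATA factors), CATTCC (the M-CAT element bound by TEAD factors), the CArG box (bound by SRF) or the MEF2 site.
Nebl start 1, chr2:17462857-17463106, minus strand: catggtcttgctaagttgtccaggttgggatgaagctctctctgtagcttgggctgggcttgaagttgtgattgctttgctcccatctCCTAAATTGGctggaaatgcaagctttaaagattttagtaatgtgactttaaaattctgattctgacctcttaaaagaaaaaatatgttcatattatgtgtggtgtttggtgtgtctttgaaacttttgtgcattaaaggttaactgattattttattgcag
Nebl start 2, chr2:17526131-17526380, minus strand: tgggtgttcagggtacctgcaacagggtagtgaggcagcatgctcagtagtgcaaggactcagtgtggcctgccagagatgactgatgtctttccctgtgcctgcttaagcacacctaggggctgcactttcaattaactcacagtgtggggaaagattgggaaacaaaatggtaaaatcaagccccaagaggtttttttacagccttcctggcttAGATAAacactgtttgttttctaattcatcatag
Nebl start 3, chr2:17670166-17670415, minus strand: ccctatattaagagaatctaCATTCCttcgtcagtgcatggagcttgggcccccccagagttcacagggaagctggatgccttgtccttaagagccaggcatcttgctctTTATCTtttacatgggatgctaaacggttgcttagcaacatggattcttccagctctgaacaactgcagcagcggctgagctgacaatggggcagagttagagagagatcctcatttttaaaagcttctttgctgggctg
Nebl start 4, chr2:17731135-17731384, minus strand: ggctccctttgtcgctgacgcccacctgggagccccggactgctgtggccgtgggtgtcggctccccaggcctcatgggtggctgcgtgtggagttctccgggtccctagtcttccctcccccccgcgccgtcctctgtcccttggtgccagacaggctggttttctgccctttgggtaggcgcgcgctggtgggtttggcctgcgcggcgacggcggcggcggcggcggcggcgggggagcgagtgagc

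Start 1 had a CArG box from base -162 to base -153, counted from the start site. Start 2 had AGATAA from base -34 to base -29. Start 3 had CATTCC from base -230 to base -225 and AGATAA on the other strand from base -140 to base -135. Start 4 held none of these letters in its window, and no match on these stretches overlapped another marked one. The stretches of starts 1 and 2 end in ag, the letters that also close introns. Of 32851 promoters of this length, 9.99% held AGATAA, 7.94% TGATAA, 12.6% CATTCC, 1.47% a CArG box and 2.92% a MEF2 site. These matches describe the sequence and do not show that a factor binds there.

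Of the 7 thin filament genes 6 were above zero and 1 below, also with median centring and with quantile normalization, and the other 6 genes besides Nebl did not pass. Tmod1 encodes tropomodulin, which caps the pointed end of the filament. It read 11.70, 11.83 and 11.79 in wild type and 11.92, 11.92 and 11.85 in mutants. The groups did not overlap and the difference of 0.13 (SE 0.05) did not pass (adjusted p = 0.325). Lmod2, a leiomodin that elongates thin filaments at the same end, ran from 10.56 to 10.89 in wild type and from 10.56 to 10.81 in mutants. Its difference was 0.01, with a 95% interval from -0.21 to 0.24.

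Actc1 and Acta1 encode cardiac and skeletal muscle actin, which are both made in the fetal heart. Actc1 read 13.35, 13.30 and 13.21 in wild type and 13.37, 13.40 and 13.31 in mutants. The groups overlapped, and the difference of 0.07 (SE 0.04) did not pass (adjusted p = 0.463). It was 0.12 with median centring, 0.05 with quantile normalization and 0.04 without wild-type replicate 3. Acta1 had a difference of 0.12, with an interval from -0.05 to 0.28. The brightest array control read 13.38 to 13.56 on the 6 arrays, and the brightest of all probe sets read 13.61 to 14.08. Actc1 was thus near the top of the scale, as were Tpm1, Ttn and Csrp3, the other members with a mean of 13 or more. A small difference there does not show an equal transcript level.

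The 250 bases before the RefSeq starts of the 2 actin genes are shown because both are textbook SRF targets, and each held a CArG box. Capitals mark the same motifs as for Nebl.
Actc1, chr2:114052876-114053125, minus strand: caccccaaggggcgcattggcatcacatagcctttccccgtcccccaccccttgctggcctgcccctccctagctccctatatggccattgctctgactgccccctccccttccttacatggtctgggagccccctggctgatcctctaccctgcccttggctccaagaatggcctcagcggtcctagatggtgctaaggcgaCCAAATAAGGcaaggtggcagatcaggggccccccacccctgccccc
Acta1, chr8:123894776-123895025, minus strand: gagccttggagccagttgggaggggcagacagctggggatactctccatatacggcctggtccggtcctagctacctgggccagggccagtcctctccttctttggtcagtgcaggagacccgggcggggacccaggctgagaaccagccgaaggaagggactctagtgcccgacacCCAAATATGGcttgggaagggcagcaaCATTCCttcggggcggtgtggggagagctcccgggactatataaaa

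The CArG box lay from base -47 to base -38 in Actc1 and from base -73 to base -64 in Acta1, which also had CATTCC from base -46 to base -41. Neither window held AGATAA or TGATAA.

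Tropomyosins lie along actin and gate the access of myosin. The brightest probe sets of Tpm1 and Tpm2 differed little, by 0.05 (SE 0.04) and -0.08 (SE 0.08). Other probe sets of both genes were lower in mutants. For Tpm1, 1456623_at read 9.58, 10.02 and 9.61 in wild type and 9.32, 9.43 and 9.15 in mutants, with no overlap. Its difference was -0.44 (SE 0.13, adjusted p = 0.183 over all probe sets), while the other 2 probe sets had 0.06 and 0.01. For Tpm2, 1419739_at read 10.18, 10.66 and 10.38 against 9.76, 10.03 and 9.81, also without overlap. That was a difference of -0.54 (SE 0.13, adjusted p = 0.0967), and the other 2 had -0.03 and -0.35. The 4 probe sets of Tpm2 were thus all below zero but differed in size, and those of Tpm1 differed in sign. The ratio of 1456623_at to the brightest Tpm1 probe set was lower in mutants by a difference of -0.48 (SE 0.14, adjusted p = 0.590), and that of 1419739_at to the brightest Tpm2 probe set by -0.45 (SE 0.17, adjusted p = 0.650). By limma 0 of the 8415 ratios of all genes passed (0%), and 623 had an unadjusted p under 0.05 (7.4%). Of the 32 ratios within members 5 had one, the 2 just given and those of Nebl, Ttn and Ckm. These ratios were chosen as a measure after the data were seen.

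The 2 tropomyosin promoters are shown for comparison with those of actin.
Tpm1, chr9:67049214-67049463, minus strand: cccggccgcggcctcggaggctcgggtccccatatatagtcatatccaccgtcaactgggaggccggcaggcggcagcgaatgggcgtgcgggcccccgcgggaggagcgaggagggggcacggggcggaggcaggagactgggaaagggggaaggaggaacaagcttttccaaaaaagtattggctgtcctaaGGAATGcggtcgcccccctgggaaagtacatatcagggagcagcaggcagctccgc
Tpm2, chr4:43523555-43523804, minus strand: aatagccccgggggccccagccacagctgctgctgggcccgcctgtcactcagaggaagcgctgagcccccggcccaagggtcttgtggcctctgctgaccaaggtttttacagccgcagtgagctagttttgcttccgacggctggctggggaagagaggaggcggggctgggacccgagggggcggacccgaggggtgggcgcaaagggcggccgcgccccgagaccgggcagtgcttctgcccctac

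Tpm1 had CATTCC on the other strand from base -56 to base -51, printed as its complement. The Tpm2 window held none of the marked motifs.

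**Figure D2:**
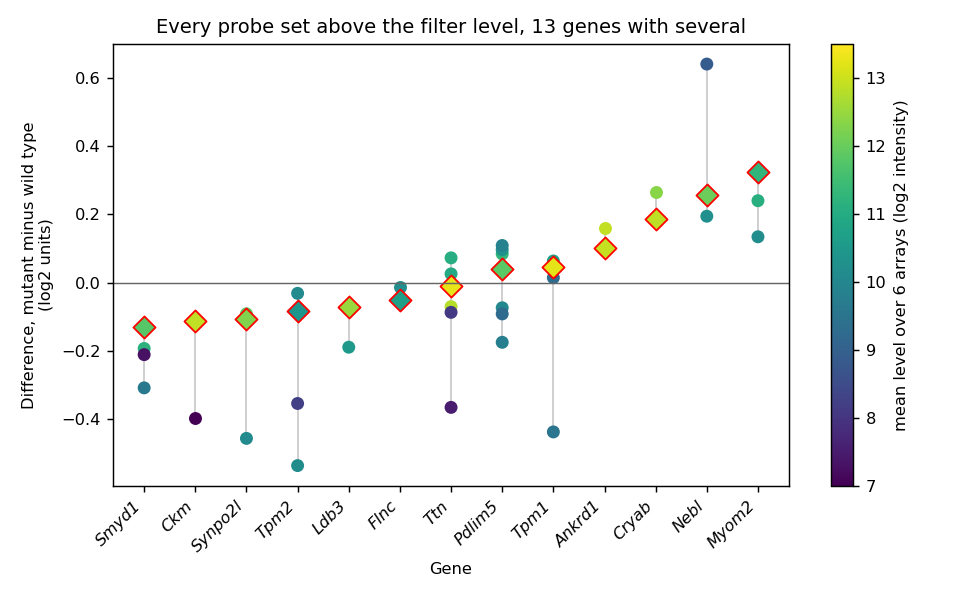
Difference of every probe set above the filter level in both genotypes (vertical axis, log2 units) for the 13 members with several (horizontal axis), coloured by mean log2 intensity. Diamonds with a red edge are the brightest probe set of each gene; in Tpm1, Tpm2, Ttn, Ckm and Synpo2l a dimmer probe set lies well below it, and in Nebl one lies above.

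Titin, the spring of the sarcomere, and cardiac myosin-binding protein C, a regulator of the thick filament, overlapped between genotypes on their brightest probe sets. By limma 0 of these 2 genes passed and 0 had an unadjusted p under 0.05. Ttn read 13.14 to 13.35 in wild type and 13.18 to 13.28 in mutants, with a difference of -0.01 and an interval from -0.14 to 0.11. Its other 5 probe sets had differences of -0.37 to 0.07 and none passed. The lowest of them, 1446450_at, did not overlap between genotypes (adjusted p = 0.279 by limma over all probe sets). Mybpc3 ran from 12.67 to 12.86 and from 12.62 to 12.74, with a difference of -0.05 (interval -0.18 to 0.09).

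At the Z-disc and along titin, 12 members were tested, 6 were above zero and 6 below (7 and 5 with median centring, 5 and 7 with quantile normalization), and 0 passed by limma, with 3 at an unadjusted p under 0.05. These were Tcap, Ankrd1 and Csrp3, and they were also the 3 whose genotypes did not overlap. Tcap encodes telethonin, which caps the end of titin in the Z-disc. It read 10.14, 10.14 and 10.27 in wild type and 9.81, 10.04 and 9.90 in mutants. All mutant arrays were lower, and the difference of -0.27 (SE 0.08, 1.21-fold) did not pass (adjusted p = 0.170). Ankrd1 encodes a titin-bound ankyrin repeat protein that also acts in the nucleus and responds to stretch. It read 12.85, 12.89 and 12.88 in wild type and 12.97, 12.99 and 12.96 in mutants. The groups did not overlap, with a difference of 0.10 (SE 0.04, adjusted p = 0.226) that was 0.05 with quantile normalization. Its other probe set, 1420991_at, read 12.84, 12.85 and 12.81 against 13.01, 12.99 and 12.97, a difference of 0.16 (SE 0.04, adjusted p = 0.0922 over all probe sets). Both probe sets thus gave small differences of the same sign that did not pass.

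Csrp3 encodes muscle LIM protein, which links the Z-disc to signalling. It read 13.07, 13.02 and 13.10 in wild type and 13.13, 13.15 and 13.15 in mutants. The groups did not overlap, with a gap smaller than the wild-type range, and the difference of 0.08 (SE 0.04) did not pass (adjusted p = 0.321) and was 0.05 with quantile normalization. Xirp1 encodes an actin-binding protein of the intercalated disc. It read 10.11, 10.88 and 10.14 in wild type and 10.09, 10.14 and 9.74 in mutants. Wild-type replicate 2 was high and mutant replicate 3 was low, the other four arrays lay together, and the difference of -0.39 (SE 0.20) did not pass (adjusted p = 0.396). It was -0.14 without wild-type replicate 2 and -0.22 with array quality weights.

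The remaining 8 genes of the Z-disc group overlapped between genotypes on their brightest probe sets, with differences from -0.11 for Synpo2l to 0.09 for Actn2. Among dimmer probe sets, 1428295_at of Synpo2l had -0.46 and 1416752_at of Ldb3 had -0.19. Neither passed by limma over all probe sets (adjusted p = 0.387 and 0.587). Actn2 encodes alpha-actinin, the main cross-linker of actin in the Z-disc, and had an interval from -0.04 to 0.22. Ldb3 encodes the PDZ-LIM protein Cypher, which binds it, and had -0.07 (interval -0.19 to 0.05). Myoz2, an inhibitor of calcineurin, had 0.06, the PDZ-LIM protein Pdlim5 0.04 and Nexn, an actin-binding Z-disc protein, -0.04. Flnc, the muscle filamin, had -0.05 and Smpx, a small muscle protein, 0.01. Pdlim5 was read by 7 probe sets, and their differences ran from -0.17 to 0.11.

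The M-band proteins Myom1 and Myom2, which cross-link myosin, and Smyd1, a muscle methyltransferase needed for myofibril assembly, did not pass. Of these 3 genes 0 had an unadjusted p under 0.05 by limma. Myom1 had a difference of 0.02 (interval -0.13 to 0.16). Myom2 read 10.43, 11.40 and 11.43 in wild type and 11.55, 11.15 and 11.53 in mutants. The difference of 0.32 was the most positive of all members, with an interval from -0.22 to 0.86 (adjusted p = 0.561). Wild-type replicate 1 alone was low, and it was also the lowest array on the other 2 Myom2 probe sets above the filter, at 10.29 and 9.31. Smyd1 had -0.13 (interval -0.31 to 0.05), and the other 3 of its probe sets above the filter had -0.19, -0.21 and -0.31. Of these, 1450203_at and 1421329_a_at did not overlap between genotypes, and neither passed (adjusted p = 0.331 and 0.184).

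Desmin, the intermediate filament that ties Z-discs together, and its small heat shock chaperone alpha-B crystallin differed in how they varied. Cryab read 12.71, 12.71 and 12.85 in wild type and 12.93, 12.94 and 12.96 in mutants. Mutant arrays were all higher and close together, and the difference of 0.18 (SE 0.05, 1.14-fold) did not pass (adjusted p = 0.108). It was 0.10 as the mean of all Cryab probe sets, of which 1 lay below the filter. The second Cryab probe set, 1416455_a_at, read 12.17, 12.25 and 12.19 against 12.49, 12.51 and 12.41. Its difference of 0.27 (SE 0.05) passed when every probe set was tested (adjusted p = 0.0417). Cryab was thus higher on both probe sets above the filter and called on 1 of them. Des read 11.02, 11.79 and 11.05 in wild type and 11.41, 11.41 and 11.05 in mutants. Wild-type replicate 2 was the highest array, as for Xirp1, and the difference was 0.01 with an interval from -0.42 to 0.43.

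The 3 genes of energy and oxygen supply were all below zero, under both scaling alternatives as well, and 0 passed by limma, with 2 at an unadjusted p under 0.05. Mb encodes myoglobin, which stores oxygen in muscle. It read 12.58, 12.78 and 12.72 in wild type and 12.49, 12.36 and 12.33 in mutants. The groups did not overlap, and the difference of -0.30 (SE 0.06, 1.23-fold) missed the threshold narrowly (adjusted p = 0.0580). It passed with quantile normalization (0.0384), with array quality weights (0.0395) and without wild-type replicate 1 (0.0208). It did not pass with median centring (0.0971), without the filter (0.147) or without the intensity trend (0.188). With the mean of its probe sets, which takes in a probe set below the filter, the adjusted p was 0.488. Leaving out any other single array gave 0.113 to 0.196. Ckmt2 encodes the mitochondrial creatine kinase of muscle, and its difference was the most negative of all members. It read 9.46, 10.46 and 10.42 in wild type and 9.44, 8.93 and 9.35 in mutants. Wild-type replicate 1 lay with the mutants, 0.02 above the highest of them, and the other wild-type arrays were far above. The difference was -0.87 (SE 0.25, 1.83-fold) and did not pass (adjusted p = 0.145). It was -1.20 and passed without wild-type replicate 1 (adjusted p = 0.00854). In every other setting its adjusted p by limma stayed above 0.05, from 0.0554 with array quality weights to 0.360 without mutant replicate 2. Ckm encodes the creatine kinase that sits at the M-band and in the cytosol. It ran from 12.69 to 13.13 in wild type and from 12.75 to 12.90 in mutants, with a difference of -0.11 (interval -0.33 to 0.10). A dimmer Ckm probe set, 1444643_at, had -0.40 and did not pass by limma over all probe sets (adjusted p = 0.335).

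**Figure D3:**
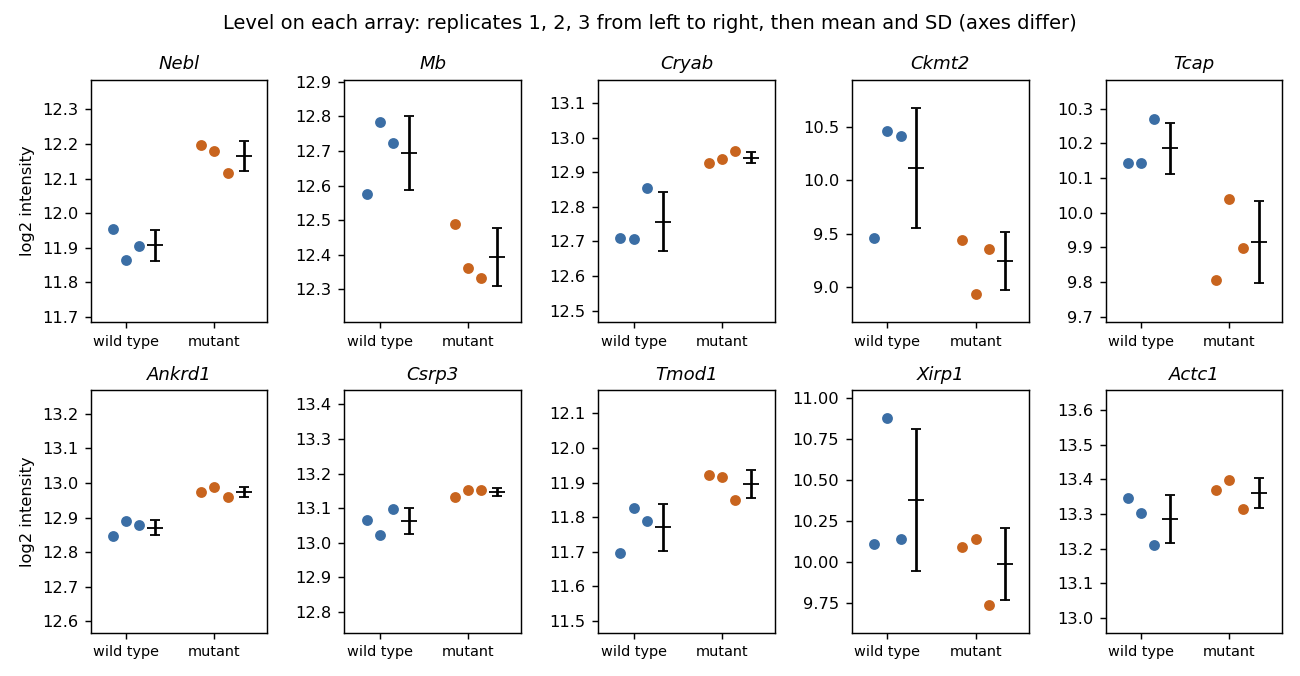
Level in log2 intensity (vertical axes, with different ranges) of the 10 members with the smallest p on each of 3 wild-type (blue) and 3 mutant arrays (orange), with the mean and SD in black. Nebl and Ankrd1 show narrow groups apart from each other; in Ckmt2 the first wild-type array, at 9.46, sits beside the mutants, and in Xirp1 the second, at 10.88, stands alone.

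Many members are also expressed in skeletal muscle, those above zero such as Acta1 and Actn2 as well as those below such as Mb, Ckmt2, Tcap and Ckm. Of 24 skeletal muscle markers 7 were tested, and by limma 0 passed in the higher and 2 in the lower direction. Tnni2, the fast troponin I, fell by 1.04 (SE 0.17, adjusted p = 0.0217), and Casq1, the calsequestrin of skeletal muscle, fell by 0.41 (SE 0.08, adjusted p = 0.0467). Of the 7 tested, 3 had an unadjusted p under 0.05. Below zero were 5, and 2 were above, Myl1 at 0.25 and Tnnt1 at 0.09. The other 17 markers were at or below the filter level, among them Myod1, Myog, Myf5 and Pax7, which define the lineage. The summed intensity of the 24 markers was 6053 to 8242 in wild type and 6397 to 8070 in mutants. Summed cardiomyocyte markers were 84684 to 86869 and 88176 to 89599, higher on each mutant array. Their part in the member values was not tested either.

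**Figure D4:**
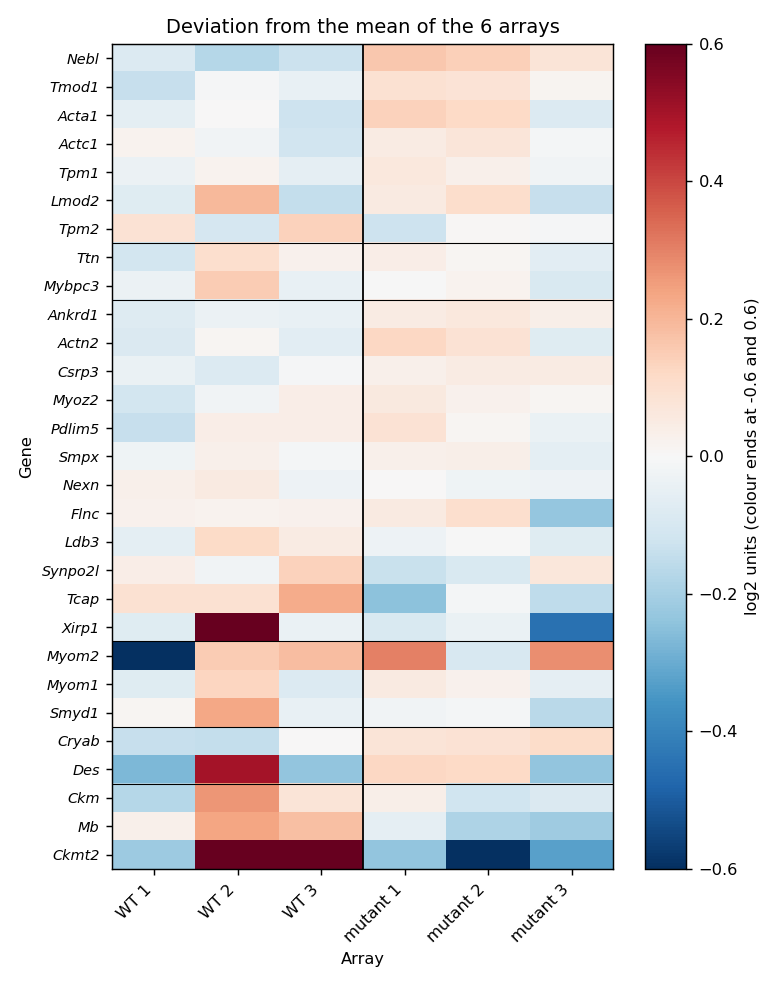
Deviation of each member (vertical axis, grouped by role) from its mean over the 6 arrays (horizontal axis), in log2 units, with colours ending at -0.6 and 0.6. The genotypes do not overlap in 8 rows, Nebl, Tmod1, Ankrd1, Csrp3 and Cryab (higher in mutants) and Tcap, Ckmt2 and Mb (lower). Wild-type array 2 is high for Xirp1 and Des, wild-type arrays 2 and 3 for Ckmt2, and wild-type array 1 is low for Myom2.

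The members' extremes fell unevenly on the arrays. Wild-type replicate 2 was the highest of the 6 arrays for 12 members and wild-type replicate 1 for 0, while wild-type replicate 1 was the lowest for 9 and mutant replicate 3 for 7. The median deviation of the members from their wild-type mean ran from -0.053 to 0.058 over wild-type arrays and from -0.048 to 0.061 over mutant arrays, so the genotypes overlapped in it.

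Other genes of the sarcomere and its surroundings were taken from lists that hold no member. Over all genes tested by limma 1.39% passed as higher and 0.369% as lower. Of 21 tested genes in a list of other Z-disc, I-band and M-band genes, 3 rose and 2 fell by that test. Pdlim7, a PDZ-LIM protein, rose by 0.59 (SE 0.10), Pdlim3, another one, by 0.33 (SE 0.07), and Trim54, a ubiquitin ligase of the sarcomere, by 0.65 (SE 0.12). Synpo2, an actin-bundling protein, fell by 0.70 (SE 0.12) and Cmya5, a large protein near the Z-disc, fell by 0.52 (SE 0.10). Of 8 other thin filament genes 1 rose, the leiomodin Lmod3, by 0.43 (SE 0.07, adjusted p = 0.0207). Of 10 chaperones of the myofibril 1 fell, Unc45b, the myosin chaperone, by 0.31 (SE 0.06, adjusted p = 0.0480).

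Of 10 myosin and troponin genes 0 passed by limma, with 2 at an unadjusted p under 0.05, Myl7 at 0.14 and Myh6 at 0.11. Of 11 genes of the costamere, which ties the Z-disc to the membrane, 0 passed and 1 had an unadjusted p under 0.05, the sarcoglycan gene Sgca at 0.23, while the talin gene Tln2 had -0.20. Among 15 muscle transcription regulators 13 were below zero and the median difference was -0.17. Over all genes 47.2% were above zero and the median was -0.011. There Tbx20, a T-box factor of heart muscle, fell by 0.38 (SE 0.08, adjusted p = 0.0461).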

How the data were processed

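Total RNA from whole hearts was taken with Trizol, and target from 3 µg was labelled with biotin and hybridised to 1-colour Affymetrix arrays, per the labels' protocols. The values the authors deposited are intensity on a linear scale, 1 for each probe set and array, and their array medians lay within 0.12 log2 units, so no step between arrays was added. How the authors summarised and normalized them is not given in the sources used here. With 3 arrays a genotype, their number limits the precision.

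Of 45101 probe sets, 64 were controls, and 34945 had 1 gene symbol in the platform annotation, 932 several and 9160 none. Values under 1 were raised to 1 before taking log2. Each gene was read from its brightest probe set by mean, and it was tested where that mean was above 6.30, an intensity of 78.9, which is the median over probe sets other than controls.

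The test was two-sided, from limma 3.58.1 (R 4.3.3) by lmFit and eBayes with an intensity trend, with Benjamini-Hochberg adjustment over all genes tested. The fit was tested on simulated arrays. The labels name biological replicates without saying how they were separated. The p-values thus set the difference between genotypes against the spread of these 6 samples within their genotypes, as moderated by limma over all genes tested. The members and lists were chosen with earlier results of these data known, so counts and medians of lists carry no test.

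Named were members that passed, the 10 with the smallest p, those whose genotypes did not overlap and, per list, genes that passed or otherwise the 2 with the smallest p. The array values of Myom2, Des and single probe sets were picked after they were seen. Alternatives changed the scaling, the offset (16), the filter, the choice of probe set, the trend and array weights, the threshold (0.10), a block for replicate number, and the arrays used, leaving out each in turn. Promoter sequences are RefSeq's, build GRCm38.p6; 25 of the 30 listed genes had an entry, and Tcap, Nexn, Xirp1, Myom2 and Cryab were not matched.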

Additional observations from a re-analysis of the deposited data

How the results depend on the processing

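The 196 genes called overall became 81 without a filter, 125 with the mean of a gene's probe sets, 119 without the intensity trend, 429 with array quality weights, 369 at an adjusted p under 0.10, and 37 to 451 with 1 array left out (37 without mutant replicate 1, 451 without wild-type replicate 1). The 1 member called became 0 with median centring, without a filter or without the trend, and 2 with quantile normalization, array quality weights or an adjusted p under 0.10 (Nebl and Mb each time). Among probe sets tested singly 2 were called, 1 each of Nebl and Cryab. With 1 array left out 0 to 3 members were called (3 without wild-type replicate 1: Nebl, Mb and Ckmt2). The median difference of the members was -0.022 to 0.065 with 1 array left out, and 0.065 was the value without wild-type replicate 2. The count of 8 members without overlap was 7 to 9 under the scaling alternatives, and 17 of 61 when member probe sets were counted singly, where 20.6% of all probe sets did not overlap. With the replicate number as a block, 234 genes and 1 member, Nebl (adjusted p = 0.0464), were called. Deviations of same-numbered arrays correlated at -0.058, 0.131 and 0.411, and those of arrays with unlike numbers at -0.316 to 0.253. With 3 arrays a genotype these values cannot show whether same-numbered samples were paired, and the labels do not say. For the 10 members named with their values, 147 of 160 alternative values kept direction and side of the threshold, 9 lost the call (all Nebl), 4 gained one (3 for Mb, 1 for Ckmt2), and 0 changed sign.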

Other observations

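Of the 30 listed genes 25 had a promoter entry, Xirp2 among them although it had no probe set, and 5 had a CArG box in the 250 bases before a start (Acta1, Actc1, Ldb3, Myom1 and Nebl), or 20%, beside 1.62% of 27025 genes. A MEF2 site was in 5 others, the 4 members Mybpc3, Myoz2, Synpo2l and Ttn and the unmeasured Xirp2, or 20%, beside 3.42% of all genes. AGATAA was in 4 (Ankrd1, Myom1, Nebl and Smpx), or 16%, beside 11.4%, and TGATAA in 1, Mybpc3, or 4%, beside 9.21%. CATTCC was in 6, Acta1, Ankrd1, Flnc, Nebl, Tmod1 and Tpm1, or 24%, beside 14.4%, and CANNTG, the E-box, in 76%, beside 69.3%. Motifs were searched on both strands and some of these genes have several starts. These counts describe sequence and were not tested.

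Differences were smaller for brighter probe sets. The median absolute difference was 0.18 for the 6 members with a mean under 11, 0.12 for 6 from 11 to 12, 0.090 for 13 from 12 to 13 and 0.061 for 4 at 13 or more. Over all genes the same ranges gave 0.11, 0.081, 0.063 and 0.045, each below the value of the members. Of the 13 members with several probe sets above the filter, the brightest had a smaller absolute difference than the median of the others in 11 (84.6%), beside 57.7% of 5001 genes. All probe sets of a gene shared a sign in 10 of 13 members (76.9%), beside 56.7% of those genes. The brightest probe set thus gave the smaller difference for most of these members. Several dimmer probe sets also had a larger SE, such as 0.13 for 1456623_at against 0.04 for the brightest of Tpm1. For Synpo2l it was 0.22 for 1428295_at against 0.07. The part of this spread in the larger differences was not tested, and these comparisons were made after the data were seen.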
